A study of Mus musculus with 9 samples.

Results

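Retinoic acid handling and receptor genes were followed through GABAergic neurons of the mouse ventral midbrain. The set holds 9 genes, all 9 of which were found among the 32661 gene entries counted. They are Cyp26b1, which breaks retinoic acid down, the binding proteins Crabp1 and Crabp2, and the receptors Rara, Rarb, Rarg, Rxra, Rxrb and Rxrg. The set was drawn up with the higher level of Cyp26b1 at birth already known from these data, so that difference is given below as a description with no test.

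Retinoic acid is made from vitamin A inside cells, by retinol dehydrogenases followed by retinaldehyde dehydrogenases of the Aldh1a family. In a receiving cell it is carried by cellular retinoic acid binding proteins, broken down by enzymes of the Cyp26 family, or bound by a retinoic acid receptor (RAR) that sits on DNA together with a retinoid X receptor (RXR). The receptor pairs recognise retinoic acid response elements, and Rarb itself is a long-known direct target that carries such an element in its promoter. In the embryo retinoic acid is best known for patterning the hindbrain and spinal cord, where Cyp26 enzymes keep it in bounds.

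Neurons came from VGAT-Cre:Ai14:Pitx3-GFP mice at embryonic day 16 (E16) or on the day of birth (P0). In these animals Cre from the vesicular GABA transporter gene switches on tdTomato for good, so a cell that used the gene only in the past is also red, and the dopamine neuron gene Pitx3 drives GFP. Red cells (VGAT) or red and green cells (VGAT+PITX3) of dissected ventral midbrain were sorted into wells, 1 cell each, and sequenced by SORT-seq, which counts the 3′ ends of transcripts with molecular barcodes. There were 4 VGAT plates at E16, 3 VGAT plates at P0 and 1 VGAT+PITX3 plate at each stage. Brains from several litters were used, and which brains went onto which plate is not given, so the spread between plates may be partly technical.

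Of 3455 wells, 2034 passed the filter (at least 2000 genes, at most 50000 counts and under 15% mitochondrial counts), between 44 and 304 on a plate. VGAT P0 replicate 1 had only 44 cells but the highest median depth, 33270 counts per cell, and VGAT P0 replicate 2 the lowest, 7043. The 2 VGAT+PITX3 plates held 652 and 174 counts of Pitx3, and no VGAT plate more than 2. The column names carry a second tag after the one that matches the sample titles, and on 4 plates (VGAT E16 replicates 3 and 4, VGAT P0 replicates 1 and 3) this second tag names the other stage. The first tag was followed throughout, and the stage values without those 4 plates stand beside the results they touch.

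The promoters of 3 genes are shown because these genes carry the differences below, taken from RefSeq on GRCm38.p6 as 250 bases before to 50 after the start of transcription. The set had entries for 8 of the 9 genes, with 15 starts in all, and none for Crabp2. The Rarb promoter (chr14:16575427-16575726, minus strand) is in capitals where it holds a direct repeat of the receptor recognition sequence with a spacing of 5 bases (NGNTCANNNNNNGNTCA, searched on both strands), 53 to 37 bases before the start and on the strand of the gene. This start lies inside the annotated gene, and the window overlaps the antisense gene Gm48162.

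Rarb: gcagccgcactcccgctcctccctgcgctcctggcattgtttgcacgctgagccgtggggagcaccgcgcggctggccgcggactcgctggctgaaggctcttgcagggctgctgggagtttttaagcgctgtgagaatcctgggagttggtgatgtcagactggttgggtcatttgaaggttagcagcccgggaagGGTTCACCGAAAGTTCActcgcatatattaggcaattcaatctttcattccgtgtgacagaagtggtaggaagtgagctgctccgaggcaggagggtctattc

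Cyp26b1: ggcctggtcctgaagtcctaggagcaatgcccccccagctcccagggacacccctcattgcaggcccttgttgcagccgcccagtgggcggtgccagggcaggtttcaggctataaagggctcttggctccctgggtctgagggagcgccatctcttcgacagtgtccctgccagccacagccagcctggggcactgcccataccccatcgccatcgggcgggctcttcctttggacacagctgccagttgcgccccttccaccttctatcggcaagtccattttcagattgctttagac

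Crabp1: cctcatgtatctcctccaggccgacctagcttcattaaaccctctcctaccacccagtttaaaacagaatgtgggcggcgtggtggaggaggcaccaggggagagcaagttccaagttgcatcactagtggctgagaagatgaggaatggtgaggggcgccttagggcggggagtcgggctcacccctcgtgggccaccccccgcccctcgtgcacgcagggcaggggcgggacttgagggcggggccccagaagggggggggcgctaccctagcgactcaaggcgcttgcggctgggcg

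The Cyp26b1 window is chr6:84593761-84594060 on the minus strand and the Crabp1 window chr9:54764498-54764797 on the plus strand. Neither holds that repeat, nor a repeat with a spacing of 1 (NGNTCANNGNTCA) or 2 (NGNTCANNNGNTCA). The wider spacing was found in 283 of the 32851 promoters of the same length (0.861%), the spacing of 1 in 1.25% and the spacing of 2 in 1.11%. Among the 15 starts of the set only that of Rarb matched any of the 3 patterns. A match of letters is a description and does not show that a receptor binds there.

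The 9 genes differed in how many cells and how many counts stood behind them. Rxrb, the RXR found most widely in these cells, had 929 counts in 666 of the 2034 cells, with at most 5 in any cell. Rarb had 719 counts in 322 cells. Crabp2, Rara and Crabp1 had 396, 344 and 159 counts in 187, 295 and 70 cells. Cyp26b1 was among the sparsest, with 103 counts in 53 cells, of which 18 came from 1 cell. Rxra (141 counts in 124 cells), Rarg (132 in 110) and Rxrg (105 in 79) were spread thinly, with at most 4 counts in a cell.

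Where the reads fell also set Rarb apart. Of its 719 counts, 599 (83.3%) were intronic. For Rarg the intronic share was 48.5%, for Rxrg 25.7% and for Rara 20.9%. The other 5 genes lay between 1.94% (Cyp26b1) and 4.97% (Rxra), against 20.1% to 30.0% of all counts on a plate. Rarb (ENSMUSG00000017491, GRCm38 chr14:16430839-16819156, minus strand) spans 388318 bases, of which 1.36% are exonic. It overlaps Top2b and the antisense gene Gm48162 on the opposite strand, and since the strand setting of the counting is not given in the sources used here, its counts are uncertain to that extent. The other 8 genes are shorter. Cyp26b1 lies at chr6:84571414-84593908 (minus strand), Crabp1 at chr9:54764748-54773110 and Crabp2 at chr3:87948666-87953376 (both plus strand). Rara lies at chr11:98927818-98974942 (plus strand) and overlaps the small RNA gene Gm22061 on its own strand. Rxra lies at chr2:27676440-27762957, Rxrb at chr17:34031812-34038399 and Rxrg at chr1:167598384-167639623, all on the plus strand, and Rarg at chr15:102234938-102257517 on the minus strand. The Rarb values below are given for all reads and, where it matters, for exonic reads alone.

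**Figure D1:**
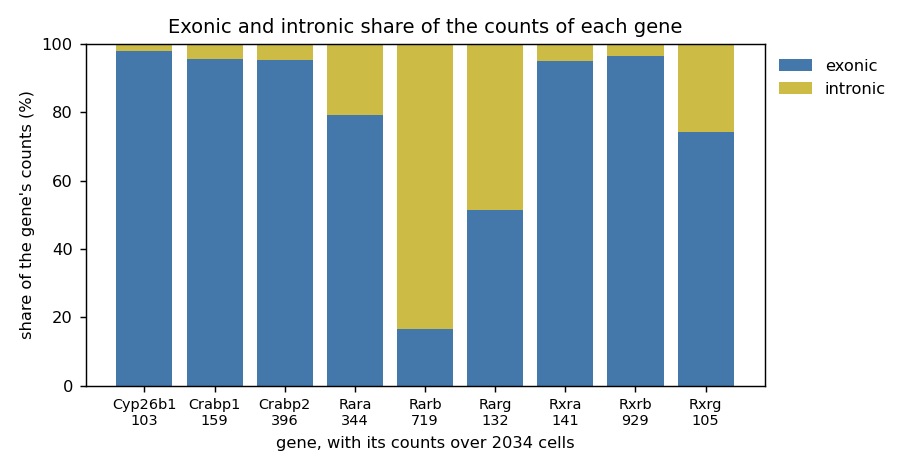
Percent of the counts of each gene that were exonic or intronic over the 2034 cells, with the number of counts in the labels. Rarb stands apart with 83.3% intronic counts, followed by Rarg with 48.5%.

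Levels were compared as counts per 1000000 counts (CPM) of the summed cells of a plate, after TMM scaling. In such sums, fewer cells with a gene cannot be told apart from fewer transcripts per cell, and 3 counts correspond to between 0.555 and 2.09 CPM depending on the plate.

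Cyp26b1 was sparse at both stages and lower on the E16 plates. The VGAT E16 plates held 0.739, 3.18, 0.190 and 0 CPM, and the VGAT P0 plates 22.2, 3.33 and 9.05 CPM. Every P0 plate was above every E16 plate, although P0 replicate 2, with 6 counts, and E16 replicate 2, with 17 counts, nearly met. The mean was 1.03 ± 1.47 CPM (SD, n = 4) at E16 and 11.5 ± 9.67 CPM (n = 3) at P0, and the fitted log2 difference was 3.36 ± 0.80 (SE). This is the value for which the genes were chosen, and it carries no test here. On the 3 VGAT plates whose tags both name the same stage (E16 replicates 1 and 2, P0 replicate 2), a fit chosen after seeing the data in which P0 has a single plate, assumed to vary like the others, the difference was only 0.69 ± 1.03 (SE). Read by the second tag, the E16 plates would hold 0.739, 3.18, 22.2 and 9.05 CPM and the P0 plates 0.190, 0 and 3.33 CPM, so the direction for Cyp26b1 depends on the first tag being right.

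Few cells stood behind the Cyp26b1 levels. P0 replicate 1 had 33 counts in 6 of its 44 cells, 18 of them in 1 cell. P0 replicate 3 had 31 counts spread over 21 of 171 cells. On E16 replicate 2, the only E16 plate above the level of 3 counts, 10 of 17 counts came from 1 cell. With each of the 7 plates left out in turn the fitted log2 difference ranged from 2.61 to 5.14.

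Crabp1, which binds retinoic acid in the cytoplasm, was also higher on every P0 plate. It stood at 5.17, 3.74, 1.71 and 5.76 CPM on the VGAT E16 plates and at 10.1, 8.33 and 12.6 CPM on the VGAT P0 plates. The stages did not overlap, and the means were 4.10 ± 1.80 CPM (SD, n = 4) and 10.3 ± 2.12 CPM (n = 3). The log2 difference of 1.38 ± 0.38 (SE) missed the threshold with edgeR's quasi-likelihood test (adjusted p = 0.0554), where 624 of 13639 genes, or 4.58%, passed. Of the 9 genes 1 passed, Cyp26b1, from which nothing is read, 3 had an unadjusted p under 0.05, and DESeq2 called 1, Crabp1. Over all genes 3280 of 13639 had an unadjusted p under 0.05 with edgeR.

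The call on Crabp1 turned on the settings. Its adjusted p was 0.0237 with DESeq2, 0.0363 with a filter of 1000 genes per well and 0.0471 without cells over 2 times the median count of their plate, all below 0.05, and 0.00662 with edgeR on all genes unfiltered. With edgeR it was 0.0733 on exonic counts and 0.0960 with the replicate number as a block. Leaving out a plate in turn gave log2 differences from 1.11 to 1.60 and adjusted p from 0.0733 to 0.204, so over the left-out plates the sign held and no fit passed. On the 3 plates whose tags name the same stage, with a single P0 plate, it was 0.91, given with no test. Read by the second tag, the E16 plates would hold 5.17, 3.74, 10.1 and 12.6 CPM and the P0 plates 1.71, 5.76 and 8.33 CPM, so the direction for Crabp1 depends on the first tag as well.

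Crabp2, the other binding protein, showed no such difference. Its levels were 16.5, 12.2, 14.6 and 9.73 CPM on the VGAT E16 plates and 6.73, 11.7 and 15.2 CPM on the VGAT P0 plates, and the stages overlapped. The log2 difference was -0.15 ± 0.28 (SE; edgeR adjusted p = 0.785), and an interval of 2 SE on either side ran from -0.71 to 0.41.

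Rarb varied more between plates of a stage than between stages. The VGAT E16 plates held 34.7, 16.6, 23.4 and 32.8 CPM and the VGAT P0 plates 55.2, 13.3 and 20.4 CPM. The highest and the lowest of these 7 values were both from P0. The log2 difference was 0.08 ± 0.38 (SE; edgeR adjusted p = 0.921). Without P0 replicate 1, which had 82 Rarb counts in 17 of its 44 cells, it was -0.61, on exonic counts alone it was 0.86 (adjusted p = 0.289), and on the 3 plates whose tags name the same stage, with a single P0 plate, it was -0.92, given with no test.

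The other RARs overlapped between stages. Rara, which is found in most tissues, had a mean of 10.1 ± 2.98 CPM (SD, n = 4) at E16 and 13.0 ± 2.42 CPM (n = 3) at P0. Rarg had 4.04 ± 0.652 CPM and 5.90 ± 2.94 CPM. Their log2 differences were 0.34 ± 0.29 and 0.45 ± 0.41 (SE), with edgeR adjusted p of 0.507 and 0.545.

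The RXRs, which also pair with other nuclear receptors, overlapped between stages too. Rxrb stood at 28.8, 28.2, 18.1 and 25.2 CPM on the VGAT E16 plates and at 26.9, 34.4 and 38.0 CPM on the VGAT P0 plates. Its log2 difference was 0.44 ± 0.19 (SE), with an unadjusted p of 0.0407 and an adjusted p of 0.187 by edgeR. Rxrg differed by 1.02 ± 0.54 (SE; adjusted p = 0.271), from 2.30 ± 1.27 CPM (SD, n = 4) to 4.33 ± 1.91 CPM (n = 3). Rxra differed by 0.20 ± 0.35 (SE; adjusted p = 0.778). Leaving out Cyp26b1, the median log2 difference of the other 8 genes was 0.39, against 0.02 over all genes tested. On the 3 plates whose tags name the same stage, the differences were -0.28 for Crabp2, 0.19 for Rara, 1.16 for Rarg, 0.41 for Rxra, 0.27 for Rxrb and 0.43 for Rxrg, given with no test since P0 has a single plate there.

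**Figure D2:**
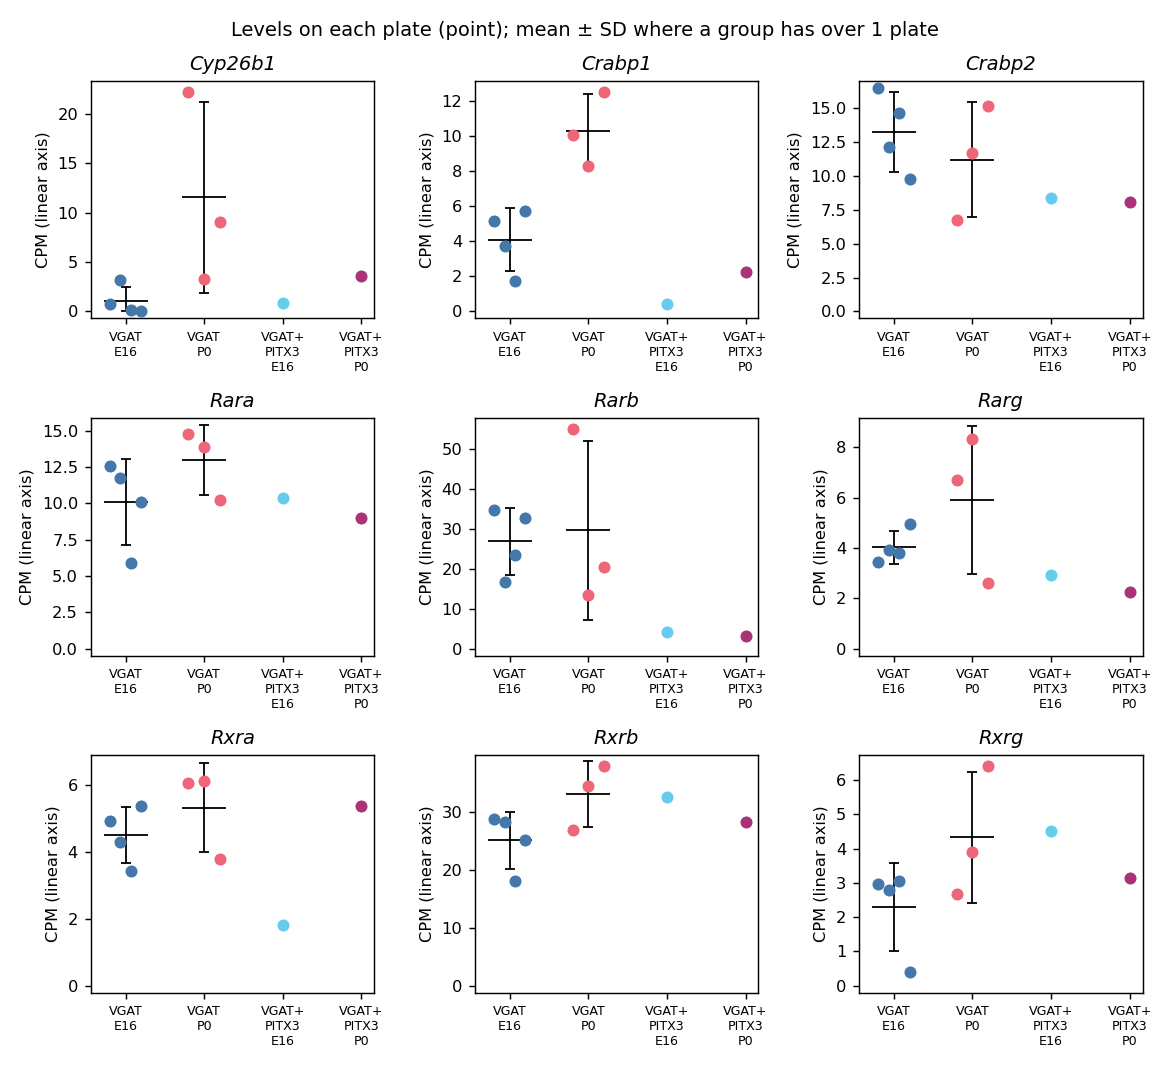
Level of each of the 9 genes in CPM on each of the 9 plates, grouped by sort and stage, with mean and SD (cut off at 0) where a group has over 1 plate. Cyp26b1 and Crabp1 are higher on the 3 VGAT P0 plates than on the 4 VGAT E16 plates, and Rarb is lowest on the 2 VGAT+PITX3 plates.

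The VGAT plates also differed in markers of other cells. The summed level of 6 radial glia and astrocyte markers, Fabp7 among them, was 39.0 to 83.0 CPM on the VGAT E16 plates and 82.3, 503 and 141 CPM on the VGAT P0 plates. Hindbrain markers (Lamp5, Hoxb2, Hoxb3 and Slc6a5) summed to between 18.5 and 85.0 CPM at E16 and to 85.1, 29.0 and 122 CPM at P0. Markers of the rostral interpeduncular nucleus (Pax7 and Otp) summed to between 0.98 and 39.8 CPM at E16 and to 34.2, 42.3 and 96.4 CPM at P0. The part of these markers in the stage differences was not tested.

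Rarb and Crabp1 were lower on the VGAT+PITX3 plates. Rarb stood at 4.07 CPM on the VGAT+PITX3 E16 plate and at 3.14 CPM on the VGAT+PITX3 P0 plate, both below each of the 7 VGAT plates. The mean was 3.61 ± 0.658 CPM (SD, n = 2) against 28.1 ± 14.3 CPM (n = 7), and with stage in the fit the log2 difference was -2.86 ± 0.54 (SE; edgeR adjusted p = 0.00280), a level 7.26-fold lower. Of 14624 genes, 1306 (8.93%) passed this test, among them Rarb and, with few counts on the VGAT+PITX3 plates, Crabp1.

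Crabp1 was at 0.452 CPM on the VGAT+PITX3 E16 plate, below the level of 3 counts, and at 2.24 CPM on the VGAT+PITX3 P0 plate. At each stage the VGAT+PITX3 plate was below every VGAT plate, although over both stages VGAT E16 replicate 3, at 1.71 CPM, reached below the VGAT+PITX3 P0 plate. The log2 difference was -2.55 ± 0.57 (SE; edgeR adjusted p = 0.00999). Crabp1 passed the filter on low counts through the VGAT plates, where it is higher, and with 2 and 5 counts on the VGAT+PITX3 plates the size of the difference is uncertain. Without that filter it was -2.57 (adjusted p = 0.000119).

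Both differences rest on 2 plates. With either left out, VGAT+PITX3 has a single plate, assumed to vary like the VGAT plates. Without the VGAT+PITX3 E16 plate neither passed (Rarb -3.16, edgeR adjusted p = 0.0798, and Crabp1 -2.22, adjusted p = 0.159), and 625 genes did. Without the VGAT+PITX3 P0 plate Rarb passed (-2.71, adjusted p = 0.0399) and Crabp1 did not (-3.08, adjusted p = 0.0729). On exonic counts alone both passed, Rarb at -2.34 (adjusted p = 0.0377) and Crabp1 at -2.48 (adjusted p = 0.0208). Rarb then had 3 counts on each VGAT+PITX3 plate and Crabp1 had 2 and 5, so these sizes are uncertain too.

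The remaining 7 genes did not pass. Crabp2 had a log2 difference of -0.61 ± 0.30 (SE; edgeR adjusted p = 0.313), Rarg had -0.77 (adjusted p = 0.469), Rxra -0.60 (adjusted p = 0.549) and Cyp26b1 -1.10 (adjusted p = 0.671). Rara (-0.17), Rxrb (0.12) and Rxrg (0.38) had adjusted p between 0.825 and 0.866. Rxrb, at 32.6 and 28.3 CPM on the VGAT+PITX3 plates, lay within the range of the VGAT plates. The median log2 difference of the 9 genes was -0.61, against -0.000756 over all genes tested.

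**Figure D3:**
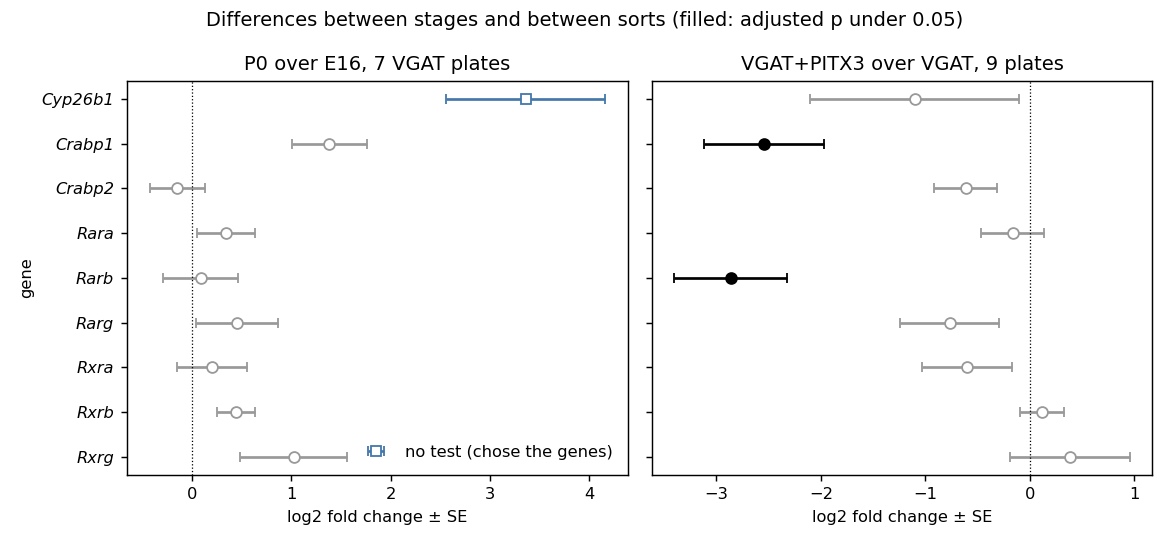
Log2 difference of each gene between stages in the VGAT plates and between sorts over 9 plates, with 1 SE on either side. Filled points passed edgeR's test at an adjusted p of 0.05, and the open square is Cyp26b1 between stages, which carries no test.

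Other markers moved with the sort as well. On the VGAT+PITX3 plates the hindbrain markers summed to 2.60 and 3.85 CPM, the Pax7 and Otp sum was 0.217 and 1.28 CPM, and the hypothalamus markers summed to 0.651 and 0 CPM, against 8.08 to 308 CPM on the VGAT plates. Dopamine neuron markers summed to 3721 and 2848 CPM against 115 to 172 CPM. GABA neuron markers (Slc32a1, Gad1 and Gad2) were at 1128 and 1279 CPM, against 1576 to 2090 CPM on the VGAT plates. Their part in the lower levels of Rarb and Crabp1 was not tested.

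Whether the stage difference itself depended on the sort could be asked only with 1 VGAT+PITX3 plate per stage, assumed to vary like the VGAT plates. None of 15724 genes (0%) passed edgeR's test of that interaction, 997 had an unadjusted p under 0.05, and DESeq2 called 14. Among the 9 genes 0 passed with either tool and 0 had an unadjusted p under 0.05, with adjusted p between 0.808 and 0.985.

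Shares of cells give the same genes cell by cell. Cells were thinned to 4000 counts each, which left out the 78 shallower cells and kept 1956, and a cell counted as having a gene at 1 count or more. Intervals are exact Clopper-Pearson 95% intervals and cover counting error only.

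Cyp26b1 was found in 3 of 228 cells of VGAT E16 replicate 2 (1.32%, 0.272 to 3.80%) and in 0 cells of the other 3 VGAT E16 plates, where the interval reached up to 2.00%. On the VGAT P0 plates it was found in 3 of 43 cells (6.98%, 1.46 to 19.1%), 2 of 194 (1.03%, 0.125 to 3.67%) and 7 of 169 (4.14%, 1.68 to 8.35%). By this measure the stages overlapped, since P0 replicate 2 fell below E16 replicate 2. The means were 0.329 ± 0.658% (SD, n = 4) and 4.05 ± 2.97% (n = 3). Without thinning the plates of P0 gave 13.6%, 2.28% and 12.3%, and those of E16 between 0% and 2.63%.

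Crabp1 was found in 1.20 ± 1.09% of VGAT E16 cells (SD, n = 4) and 2.86 ± 1.61% of VGAT P0 cells (n = 3), and the plates of the stages overlapped. On the VGAT+PITX3 plates 1 of 299 cells (0.334%) and 3 of 249 cells (1.20%) had it. On some plates its counts were concentrated, since 12 of the 15 counts of P0 replicate 1 came from 1 cell, as did 15 of the 29 counts of E16 replicate 4.

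Rarb was found in 10.4%, 7.02%, 7.38% and 9.90% of cells on the VGAT E16 plates, and in 14.0%, 2.58% and 8.88% on the VGAT P0 plates. On the VGAT+PITX3 plates the shares were 1.00% (3 of 299 cells, interval 0.207 to 2.90%) and 1.20% (3 of 249, 0.249 to 3.48%). Each was below every VGAT plate, but the interval of each overlapped that of VGAT P0 replicate 2 (0.842 to 5.91%). On exonic counts the gap was smaller, with 1.05% and 0.995% on the VGAT+PITX3 plates against 2.29%, 1.78%, 1.40% and 3.58% on the VGAT E16 plates and 4.65%, 1.21% and 4.22% on the VGAT P0 plates, and the interval of each VGAT+PITX3 plate overlapped that of every VGAT plate. Without thinning and on all reads the VGAT+PITX3 plates stood at 4.61% and 2.58%, and the VGAT plates between 8.68% and 38.6%.

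**Figure D4:**
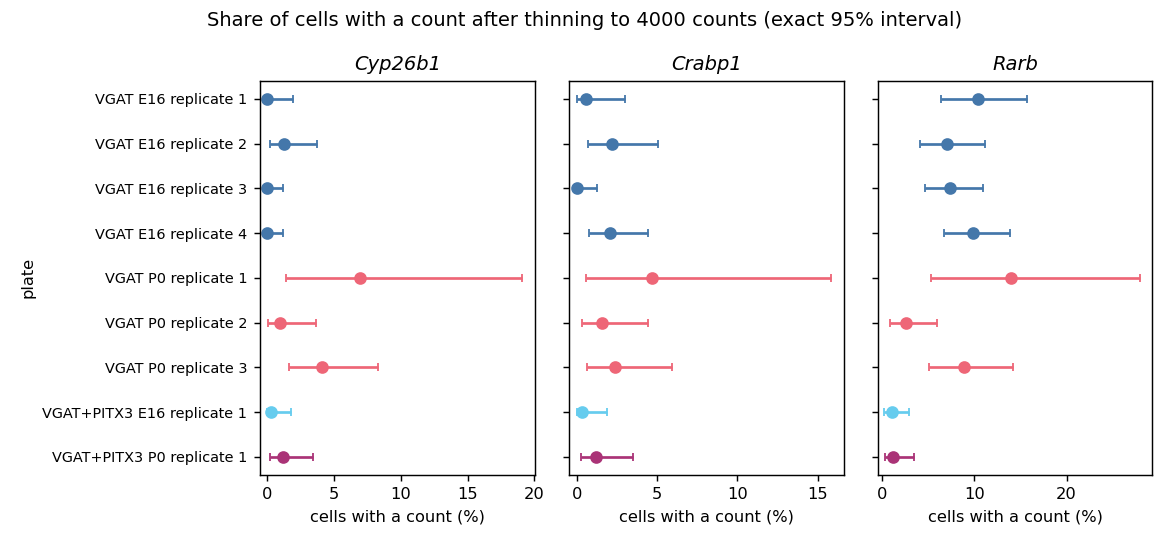
Percent of cells with at least 1 count of Cyp26b1, Crabp1 and Rarb on each of the 9 plates after thinning to 4000 counts, with exact 95% intervals. Rarb is found in about 1% of cells on the 2 VGAT+PITX3 plates and in 2.58% to 14.0% on the VGAT plates.

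The other genes were shared more evenly between the groups. Rxrb was found in 9.95% of cells at VGAT E16 and 12.4% at VGAT P0 (means over plates), and in 8.03% and 9.64% on the VGAT+PITX3 plates. Rara followed with 3.07%, 4.99%, 4.35% and 3.61% in the same order, and Crabp2 with 3.86%, 2.95%, 2.68% and 2.41%. Rarg, Rxra and Rxrg stayed at or below 2.00% in every group, and Rxrg was in no thinned cell of the VGAT+PITX3 P0 plate.

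To place the genes among kinds of GABAergic neuron, cells of the VGAT plates with a marker were summed per plate and compared with the cells of the same plate without it. The markers were Six3, Pax5, Otx2, Nkx2-2, any of 4 Dlx genes, and Pax7 or Otp, which label neurons of different origin or position in and around the ventral midbrain. Of 23 values of the 9 genes that could be tested in these 6 comparisons, edgeR called 0, 5 had an unadjusted p under 0.05, and DESeq2 called 1. Between 1.06% (Pax7 or Otp) and 6.07% (Otx2) of all genes passed in each comparison, with 2.71% for Six3, 5.22% for Pax5, 3.14% for Nkx2-2 and 1.41% for Dlx. A marker not found in a cell at this depth may still be expressed there.

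Crabp2 had the lowest adjusted p of these. In cells with Nkx2-2, a transcription factor of ventral progenitors and of neurons in the reticular formation, it was at 5.95, 8.05, 4.93 and 4.67 CPM on the VGAT E16 plates and at 0, 0 and 22.2 CPM on the VGAT P0 plates. In the cells without it the same plates gave 20.6, 13.5, 18.0 and 12.3 CPM, and 9.96, 15.0 and 14.8 CPM. Crabp2 was thus lower with Nkx2-2 on 6 of 7 plates, with a log2 difference of -1.28 ± 0.34 (SE; edgeR adjusted p = 0.0529). P0 replicate 3, with 8 Crabp2 counts in 17 such cells, was the exception. Crabp2 cleared the filter on low counts mainly through the cells without Nkx2-2, where it is higher, so its adjusted p are uncertain here. With each plate left out in turn the adjusted p ran from 0.00836 (without P0 replicate 3, the only one that passed) to 0.228. It was 0.0395 with DESeq2, 0.0266 on exonic counts, 0.0261 without thinning and 3.47e-05 without the filter on low counts, but 0.0729 with cells thinned to 8000 counts and 0.139 without the plate block.

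Crabp2 was low in some other classes as well. In cells with Otx2 it was at 4.49 ± 3.38 CPM (SD, n = 7 plates) against 14.3 ± 3.74 CPM without, lower on 7 of 7 plates. That value had too few counts for the main test. In the other settings it cleared the filter mainly through the cells without Otx2, so the differences are given with no test. They were -1.40 on exonic counts, -1.09 with cells thinned to 8000 counts and -0.69 without thinning. In cells with a Dlx gene it was at 3.81 ± 4.69 CPM (n = 6) against 13.1 ± 3.61 CPM, lower on 6 of 6 plates, with -1.27 ± 0.45 (SE; adjusted p = 0.290). In cells with Pax5 it was at 15.5 ± 8.88 CPM against 12.3 ± 3.93 CPM (n = 6), with 0.60 ± 0.35 (SE; adjusted p = 0.448).

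The binding proteins were higher on most plates in the few cells with a Hox gene of the hindbrain (any of Hoxa2 to Hoxa5 or Hoxb2 to Hoxb5). At 4000 counts such cells were too few on all but 2 plates, so this comparison was made with cells thinned to 8000 counts, on 4 plates with 33 such cells, and also without thinning. At 8000 counts 83 of 11358 genes (0.731%) passed. Crabp1 was at 59.2, 31.3 and 7.52 CPM (here without TMM) in the cells with a Hox gene of VGAT E16 replicates 1 to 3 and at 61.6 CPM in those of VGAT P0 replicate 3. In the other cells of these plates it was at 2.72, 1.97, 1.58 and 9.66 CPM, lower on each plate, although the 7.52 CPM of replicate 3 are 1 count in 8 cells. The 33 cells thus held 29 counts of Crabp1 and the other 759 cells 57. Crabp1 passed the filter on low counts mainly through the cells with a Hox gene, where it is high, and was too sparse to test in the other marker classes, so these levels are given with no test.

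Crabp2 was at 138, 75.2, 0 and 70.4 CPM in the same cells and at 12.5, 10.5, 13.8 and 11.7 CPM in the others. It was higher with a Hox gene on 3 of 4 plates, by 2.48 ± 0.52 (SE, log2; edgeR adjusted p = 0.0465), and by 2.00 without thinning (adjusted p = 0.309). Rara, Rarb and Rxrb differed by -0.26, 0.12 and 0.15 and did not pass (adjusted p of 0.992, 1 and 0.994).

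Rarb leaned away from cells with Six3 and towards cells with Otx2, without passing the test for either. In cells with Six3 it was at 17.2 ± 9.70 CPM (SD, n = 7) against 34.6 ± 21.5 CPM, lower on 6 of 7 plates, with a log2 difference of -0.70 ± 0.24 (SE; edgeR adjusted p = 0.178). In cells with Otx2 it was at 75.0, 19.5, 43.1 and 62.8 CPM on the VGAT E16 plates and at 15.5, 29.6 and 5.41 CPM on the VGAT P0 plates. Without Otx2 the values were 27.4, 16.6, 20.1 and 27.1 CPM, and 67.2, 10.8 and 22.9 CPM. Rarb was higher with Otx2 on all 4 E16 plates and on 1 of 3 P0 plates, and over the 7 plates the difference was 0.63 ± 0.30 (SE; adjusted p = 0.303). With each plate left out in turn it ran from 0.40 (without E16 replicate 1, adjusted p = 0.671) to 0.91 (without P0 replicate 1, adjusted p = 0.0345), and of these fits only the latter passed. Without the filter on low counts it was 0.56 (adjusted p = 0.0342).

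Neither Rara nor Rxrb passed in any of the 6 marker comparisons. Rara was higher in cells with Pax7 or Otp on 4 of 4 plates, at 22.6 ± 12.8 CPM (SD) against 11.9 ± 2.25 CPM, with 0.96 ± 0.41 (SE; edgeR adjusted p = 0.457). The fitted differences of Rxrb lay between -0.16 and 0.06 in the 6 comparisons. Rxra had too few counts to test, at 7.43 ± 1.20 CPM (SD, n = 6) in cells with a Dlx gene against 4.85 ± 1.24 CPM without, and at 2.20 ± 1.23 CPM in cells with Pax5 against 5.19 ± 1.26 CPM without.

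**Figure D5:**
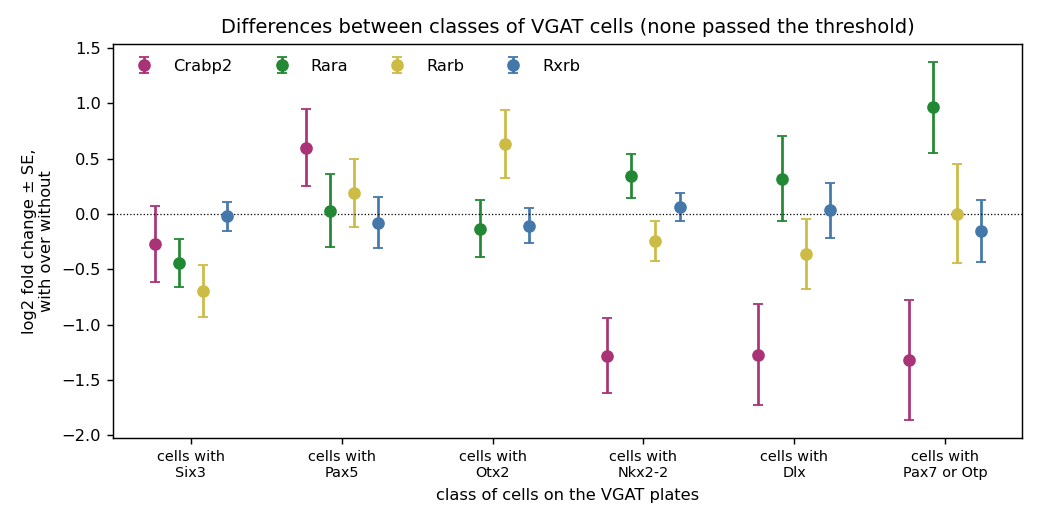
Log2 difference of Crabp2, Rara, Rarb and Rxrb between cells with a marker and cells of the same VGAT plates without it, with 1 SE on either side, for 6 markers. Crabp2 is lowest in cells with Nkx2-2, Dlx genes and Pax7 or Otp (no point for Otx2, where it was not tested), and Rxrb stays between -0.16 and 0.06.

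Cyp26b1 and Crabp1 had too few counts for these tests, and their cells are given as counts. The genes named as found in the same cells are a few of many markers compared, picked with no rule set beforehand. In cells with Pax7 or Otp, which mark the rostral interpeduncular nucleus, Cyp26b1 had 13 of the 17 counts of VGAT E16 replicate 2 and 12 of the 31 counts of VGAT P0 replicate 3, and 0 on the other 2 plates with enough such cells. Of the 15 thinned VGAT cells with Cyp26b1, 7 also had Lamp5 (46.7%, against 7.97% of cells without Cyp26b1) and 5 had Pax7 (33.3% against 3.73%). None of the 15 had Foxp2, which was in 23.2% of the other cells, and none had the glial gene Fabp7. At P0 alone, 6 of 12 cells with Cyp26b1 had Lamp5 (50.0% against 11.4%) and 3 had Pax7 (25.0% against 8.88%).

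Cells with Crabp1 also often had Lamp5 at P0. Of 9 thinned VGAT cells with Crabp1 at that stage, 5 had Lamp5 (55.6% against 11.6% of cells without Crabp1). In cells with a Dlx gene Crabp1 had 6, 8, 0 and 22 counts on the VGAT E16 plates and 0 on P0 replicates 1 and 2, against 15, 12, 9 and 7, and 15 and 15, in the other cells of these plates. Over both stages 0 of 21 cells with Crabp1 had Otx2, which was in 17.9% of the other cells. These shares count cells pooled over plates, so cells of a plate are not replicates, and no test was made.

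The binding proteins were found together in 4 of the 21 cells with Crabp1 (19.05%), against 3.68% of cells without it. Of 55 thinned VGAT cells with Crabp2, 16 had Sox21 (29.1% against 12.3%) and 16 had En1 (29.1% against 13.2%), while 3 had Nkx2-2 (5.45% against 22.8%). Of 112 cells with Rarb, 19 had Neurod6 (17.0% against 4.71%), a gene of the ventral tegmental area. Of 16 cells with Rxrg, 7 had Foxp2 (43.8% against 22.7%) and 3 had Slc32a1 (18.8% against 53.9%). As above, these are a few of many markers compared, and they do not place the cells in a type.

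The same comparison was made the other way round, with cells grouped by Crabp2, Rara, Rarb or Rxrb. Cells with Crabp2 (55 on 6 plates) differed from the other cells of their plates in 21 of 9860 genes (0.213%), 2 higher and 19 lower. The 2 higher genes, Pou3f1 and Calb1, were not higher on every plate, while the 19 lower genes were lower on 6 of 6. Among these, chosen after their values were seen, were the neuropeptide gene Sst (36.9 ± 16.8 CPM against 265 ± 112 CPM, SD, n = 6; log2 difference -2.83, edgeR adjusted p = 3.19e-07), Tcf7l2 (-2.90, adjusted p = 0.000414) and Prox1 (-2.07, adjusted p = 0.00215). With cells thinned to 8000 counts 3 genes passed, 2 higher and 1 lower. The lower gene was Sst (-2.29, adjusted p = 0.00075), so Tcf7l2 and Prox1 did not pass there. Without thinning 3 genes passed, 0 higher and 3 lower, and Sst did not (-1.60, adjusted p = 0.0661).

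Cells with Rarb (112 on 7 plates) differed in 2 genes (0.0205%). With cells thinned to 8000 counts 43 genes passed, 38 of them higher, and without thinning 21 passed, 18 of them higher. Tfap2b, a transcription factor gene also named after its value was seen, was at 2.04 ± 3.42 CPM against 79.7 ± 61.5 CPM (SD, n = 7), lower on 7 of 7 plates (-4.94, edgeR adjusted p = 2.86e-07). With cells thinned to 8000 counts its difference was -1.51 (adjusted p = 0.728). Ebf1 was higher on 6 of 7 plates (1.22, adjusted p = 0.0269). It did not pass without any 1 of the E16 plates or without P0 replicate 2 (adjusted p of 0.104 to 0.135), nor without the plate block (0.490). Cells with Rxrb (148 on 7 plates) differed in 3 genes (0.0297%), Palld, Htr2c and Sgcz, all lower, and in 0 with cells thinned to 8000 counts or not thinned. Cells with Rara (48 on 6 plates) differed in 0 genes with edgeR (0%), 374 had an unadjusted p under 0.05 and DESeq2 called 1. Of 11 tests of the other members in these 4 groupings 0 passed with edgeR or DESeq2, and 0 had an unadjusted p under 0.05.

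Other genes of the pathway were described as 6 lists. Few of those for uptake and synthesis had enough counts to test. Between stages 36 genes were tested, 1 for vitamin A uptake and storage, 4 for synthesis, 2 for breakdown and binding, 13 corepressors and coactivators, 7 receptors that pair with RXR and 9 with a known retinoid response. Of these edgeR called 1, 12 had an unadjusted p under 0.05, and DESeq2 called 2, among them Zfp703. Over all genes 4.58% passed edgeR's test. The gene called by edgeR was Fabp7, a lipid binding protein that can carry retinoic acid but is also a radial glia gene. It is itself among the glial markers summed above. It was higher at P0 by 4.03 ± 0.99 (SE, log2; edgeR adjusted p = 0.0402), from 2.71 to 7.35 CPM on the E16 plates to 7.40, 246 and 4.38 CPM on the P0 plates, so that P0 replicate 2 alone, the plate richest in glial markers, stood apart. Without that plate the difference was 0.11 (adjusted p = 0.935), and on the 3 plates whose tags name the same stage, where it is the single P0 plate, 5.69, given with no test. With the replicate block it was 3.36 (adjusted p = 0.0708), and without any 1 of the E16 plates the adjusted p was 0.0521 to 0.114.

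Between the sorts 6 synthesis genes and 3 uptake genes were tested, and some of these passed the filter on low counts mainly through the VGAT+PITX3 plates, where they are high, so for those the levels are given with no test or count. The retinaldehyde dehydrogenase Aldh1a1, known for dopamine neurons, went from 0.246 to 2.22 CPM on the VGAT plates to 2189 and 1737 CPM, a difference that was also among the earlier results of these data. Dhrs3, which turns retinaldehyde back to retinol, was at 0 to 1.12 CPM on the VGAT plates and at 11.3 and 12.6 CPM on the VGAT+PITX3 plates. Rbp4, a retinol carrier, was at 0 to 2.34 CPM and at 4.75 and 5.38 CPM. Rdh11, a retinol dehydrogenase with counts on every plate, went the other way, from 36.7 to 57.2 CPM on the VGAT plates to 35.7 and 20.2 CPM. Its log2 difference of -0.68 did not pass with edgeR (adjusted p = 0.0745) and was called by DESeq2.

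Of 7 tested receptors that pair with RXR, Nr4a2, itself a dopamine neuron marker, was higher (3.65, adjusted p = 2.6e-07) and Thrb, a thyroid hormone receptor, lower (-2.14, adjusted p = 0.000572). Over all genes 4.73% were higher and 4.2% lower. Of 10 tested genes with a known retinoid response 2 were higher, among them Tshz1 (1.05), and 4 lower, Meis2 (-7.67), Nr2f1 (-3.67), Nr2f2 (-3.64) and Zfp503 (-2.11). The 13 corepressors and coactivators, which work with the RARs and RXRs, included 0 that passed with edgeR, 3 with an unadjusted p under 0.05 and 1 called by DESeq2, Nrip1. On exonic counts alone Thrb did not pass (adjusted p = 0.195), and without the VGAT+PITX3 P0 plate Tshz1 did not (adjusted p = 0.436). The dopamine neuron markers given above moved with all of these, and their part was not tested.

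In the marker classes of the VGAT plates the genes with a known retinoid response, of which 8 were tested in each class, included several that passed. In cells with Six3, where 2.71% of all genes passed, 4 were lower and 0 higher, Meis1 (-1.74), Meis2 (-1.64), Zfp503 (-1.08) and Tshz1 (-0.49). In cells with Pax5 (5.22% of all genes) 4 were lower and 0 higher, Meis2 (-2.52), Nr2f1 (-2.46), Nr2f2 (-2.01) and Meis1 (-1.45). In cells with Otx2 (6.07%) 2 were lower, Meis2 (-1.63) and Zfp503 (-1.47), and 2 higher, among them Nr2f1 (0.87).

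In cells with Nkx2-2, where 3.14% of all genes passed, Meis1 was lower (-2.19) and Meis2 (1.02) and Tshz1 (0.56) higher. In cells with a Dlx gene (1.41%) Meis2 was lower (-0.94) and Nr2f2 higher (1.24), and in cells with Pax7 or Otp (1.06%) Zfp503 (-4.87) and Zfp703 (-2.60) were lower. Nr4a2 was lower in cells with Pax5 (-4.43), Otx2 (-2.79) or a Dlx gene (-3.44) and higher in cells with Nkx2-2 (2.11). Of the 13 corepressors and coactivators, Nrip1 was lower in cells with Pax5 (-0.49) and Ncoa1 in cells with Nkx2-2 (-0.40). All of these are log2 differences with edgeR adjusted p between 6.61e-08 and 0.0488. Of 25 such calls 15 held with each plate left out in turn. Among the 10 that did not were Meis2 and Nr2f2 in cells with a Dlx gene, Meis2, Tshz1 and Ncoa1 in cells with Nkx2-2, Zfp503 in cells with Otx2, Nrip1 in cells with Pax5, Zfp703 in cells with Pax7 or Otp and Tshz1 in cells with Six3. Without thinning Nr4a2 did not pass in cells with Pax5 (adjusted p = 0.999) or Otx2 (0.0756), nor Meis2 in cells with Pax5 (0.0774), nor Zfp503 in cells with Pax7 or Otp (0.754). Of the same 15 calls, those on Meis1 in cells with Six3 or Pax5 and on Nr2f1 in cells with Otx2 did not pass without the plate block, and those on Zfp503 in cells with Six3 and on Nr4a2 in cells with Pax5 did not with cells thinned to 8000 counts.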

How the data were processed

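Cells were sorted into 384-well plates and sequenced by SORT-seq, which is based on CEL-seq2. The authors aligned reads to GRCm38 (Ensembl annotation) with STAR and deposited expected counts per gene and well, that is, molecular barcodes corrected for molecules that share one, in 1 table each for exonic, intronic and all reads. All values fitted the correction for a 6-base barcode within 0.001, whereas the study's methods name a barcode of 4 bases. The strand setting of the counting is not given in the sources used here.

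Wells were kept if they held 2000 or more genes, no more than 50000 counts and less than 15% mitochondrial counts, leaving out 92 spike-in and 34 mitochondrial entries. Well names recur between plates (383 of 384 on every plate), so cells were identified by plate and well. No doublet caller was run, and cells with over 2 times the median count of their plate were left out as an alternative. Plates were identified by the first tag of the column names, which matches the sample titles.

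Counts of all reads were summed per plate over the kept cells and rounded. The plate was the replicate. edgeR 4.0.16 in R 4.3.3 (TMM, filterByExpr, glmQLFit and glmQLFTest, Benjamini-Hochberg over all genes tested, threshold 0.05) compared P0 with E16 on the 7 VGAT plates, VGAT+PITX3 with VGAT over 9 plates with stage as a covariate, and their interaction. Classes of cells were defined by at least 1 count of a gene after thinning to 4000 counts, on plates with at least 5 cells in each class and in at least 3 such plates. Their full counts were compared with the plate as a block and the defining genes left out. Differences are on edgeR's log2 scale, and SE is their absolute size divided by the square root of the F value of the test. The tests were run on simulated counts with known changes first. Python 3.11.15 was used for shares and promoters, and RefSeq (GRCm38.p6) for promoter sequences.

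The 9 genes were named in every comparison. Genes of the 6 lists were named if they passed the threshold, at most 5 a list and comparison with the largest difference, and 1 gene is not reported here. For classes defined by a member, the rule named the 5 genes with the largest difference that were also higher on every plate, and none met it. The members and lists were chosen with earlier results of these data known. Alternatives were DESeq2 1.42.0, RLE factors, no filter on low counts, exonic counts, at least 1000 genes per well, the replicate number as a block, no plate block, thinning to 8000 counts or none, a detection limit of 2 counts, and leaving out each plate.

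Plates held 1435919 to 5408710 counts over the kept cells, and 3 counts are 0.555 to 2.09 CPM there. Molecular barcodes were counted, and intervals cover counting error only.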

Additional observations from a re-analysis of the deposited data

Results flagged for a closer look

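In these tests of single plates against the rest of a group chance flags about 1 in 20 groups. The share of cells with Cyp26b1 on VGAT E16 replicate 2, at 1.32% after thinning, stood apart from the other 3 VGAT E16 plates, which were at 0. With the others tied at 0 any value above 0 would stand apart in this way, so nothing is read from it, and Cyp26b1 carries no test here. The level of Rxrg on VGAT E16 replicate 4, at 0.397 CPM from 2 counts, stood apart from the other 3 VGAT E16 plates, which lay between 2.81 and 3.04 CPM.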

How the results depend on the processing

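Of the 9 genes 1 was past the threshold between stages in the report. It is Cyp26b1, the gene for which the set was chosen, so that nothing is read from it. The count was 2, Cyp26b1 and Crabp1, on all genes unfiltered, with at least 1000 genes per well and without cells over 2 times the median. It was 0 with the replicate number as a block. The plates whose tags both name the same stage, a setting added after seeing the data, have 1 P0 plate, so no count is given for them. Leaving out each plate gave 0 to 1, and for the sorts 0 to 2. Genes past the threshold between stages were 940 with DESeq2, 1592 unfiltered and 202 with the block, and 76 to 833 with a plate left out, the lowest of these counts being far below the 624 of the report. For the sorts leaving out a plate gave 625 to 1396, and for the interaction DESeq2 gave 14 and no filter 66. Plates with the same replicate number correlated by only 0.0385, 0.0685 and 0.0514 in their deviations. Each P0 plate still correlated best with its own number, so whether such plates share more than a number cannot be told.

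In the 6 classes by marker thinned to 4000 counts, the 9 genes past the threshold (0 in the report) were 2 unfiltered for Six3. For Otx2 they were 3 unfiltered, 1 on exonic counts, 1 at 8000 counts and 0 to 2 with a plate left out. The calls on exonic counts and at 8000 counts were of Crabp2, given above with no test. For Nkx2-2 they were 1 with DESeq2, 2 unfiltered, 1 on exonic counts, 1 without thinning and 0 to 1 with a plate left out. For Dlx they were 2 unfiltered and 1 at 8000 counts, and for Pax7 or Otp 1 unfiltered. In the 13 fits that called any of the 9 genes, 1.29% to 6.85% of all genes passed.

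In the classes by member, genes past the threshold for Crabp2 were 149 unfiltered, 2 without the plate block, 3 at 8000 counts, 3 without thinning and 19 to 33 with a plate left out. For Rara they were 1 with DESeq2, 61 unfiltered, 3 on exonic counts, 1 without thinning and 0 to 3. For Rarb they were 5, 107 and 4 in the same order, 0 without the plate block, 43 at 8000 counts, 21 without thinning and 1 to 13. For Rxrb they were 109 unfiltered, 0 without the plate block, on exonic counts, at 8000 counts and without thinning, and 0 to 2. The cause was not tested.

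Some log2 differences changed sign. With a plate left out, those between stages ran from -0.49 to 0.056 for Crabp2 (above 0 without P0 replicate 1) and from -0.61 to 0.38 for Rarb (below 0 without P0 replicate 1 and, at -0.09, without E16 replicate 2), and Rarb was at -0.92 on the plates whose tags name the same stage. Those between sorts ran from -0.50 to 0.043 for Rara, -1.30 to 0.060 for Rxra, -0.26 to 0.37 for Rxrb and -0.56 to 0.96 for Rxrg, the sign turning without the VGAT+PITX3 P0 plate for Rara and without the VGAT+PITX3 E16 plate for the RXRs. None of these passed the test. Depth limits Cyp26b1, Crabp1, Rarg, Rxra and Rxrg most, since several plates hold only a few counts of each.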
